A study of Mus musculus with 18 samples.

Results

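The cytosolic ribosomal protein genes encode the proteins that, with ribosomal RNA, make up the large and small subunits of the ribosomes that translate nuclear mRNA. Members were chosen by symbol: Rpl or Rps followed by digits and an optional a, x or l, plus Rplp0, Rplp1, Rplp2 and Rpsa, without pseudogenes named -ps and without the Rps6k kinases. Of the 55359 genes in each table, 84 symbols met this rule, 52 of the large and 32 of the small subunit. With a mean of 10 or more counts over the 6 libraries of a tissue, 82 of them were members in the ankle joint, 78 in the dorsal root ganglia and 78 in the spinal cord.

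Bulk RNA came from C57BL/6 mice aged 10 weeks that had received 100 µl of either phosphate-buffered saline (PBS) or monosodium urate (MSU) crystals, the crystals of gout, at the right ankle, and was taken 8 h later. There were 18 libraries in 6 groups, 3 PBS and 3 MSU libraries for each of the ankle joint, the spinal cord and the dorsal root ganglia, where the sensory neurons have their cell bodies. The treatment label of the controls reads untreated and their titles read WT, but the injection protocol names PBS, and they are called PBS controls here. Separate animals are not stated for the libraries of a group, and the p-values therefore describe the spread among these libraries alone, which may be technical.

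Ribosomal protein genes are transcribed at high levels in almost all cells, and their short mRNAs mostly begin with a run of pyrimidines (a terminal oligopyrimidine, or TOP, motif) through which mTOR signalling sets their translation. Most of the proteins are used in equal numbers in most ribosomes, and surplus copies are degraded. In sensory neurons, ribosomal protein mRNAs are also carried into axons and translated there.

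Library totals ran from 11632950 to 38812815 counts, so that 3 counts equalled 0.0773 to 0.258 CPM (counts scaled to the usual unit of 1e6 per library), and intervals of shares cover counting error only. Lists of sensory neuron, keratinocyte and glial genes were highest in the ganglia, the joint and the cord, in that order. The 17 sensory neuron genes, some of them made by other neurons, summed to 14938 to 21950 CPM in the ganglia. They reached 6928 to 7648 CPM in the cord and at most 36.7 CPM in the joint. The 11 keratinocyte genes summed to 6008 to 17915 CPM in the joint and at most 14.97 CPM in the ganglia. The 13 glial genes summed to 6112 to 8639 CPM in the cord. They reached at most 135 CPM in the ganglia and 173 CPM in the joint. The 10 Schwann and satellite cell genes did not mark the ganglia. They summed to 6235 to 10589 CPM there, 17973 to 22976 CPM in the cord and 1028 to 1455 CPM in the joint. In bulk RNA, a change in the number of cells of a type and a change in RNA per cell cannot be told apart.

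The members took a small share of each library, and that share differed most in the ganglia. In the ganglia they made up 0.865, 0.934 and 0.802% of counts in PBS libraries 1 to 3 and 1.26, 1.63 and 1.67% in MSU libraries 1 to 3, or 0.867 ± 0.066% against 1.52 ± 0.226% (SD, n = 3). All 3 MSU libraries lay above all 3 controls. In the cord the shares were 0.960, 1.03 and 1.05% in the controls and 1.16, 1.37 and 1.02% after MSU, so MSU library 3 lay within the control range. In the joint they were 3.94, 3.85 and 3.74% in the controls and 3.71, 3.27 and 3.44% after MSU, all 3 below the controls. The 95% Clopper-Pearson interval of the lowest share, ganglion control 3, was 0.798 to 0.806%. Mitochondrially encoded genes moved with the ganglion groups as well, from 2.73 ± 0.194% of counts to 5.07 ± 0.732%; without them the member share was 0.891 ± 0.0672% against 1.598 ± 0.228%.

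**Figure D1:**
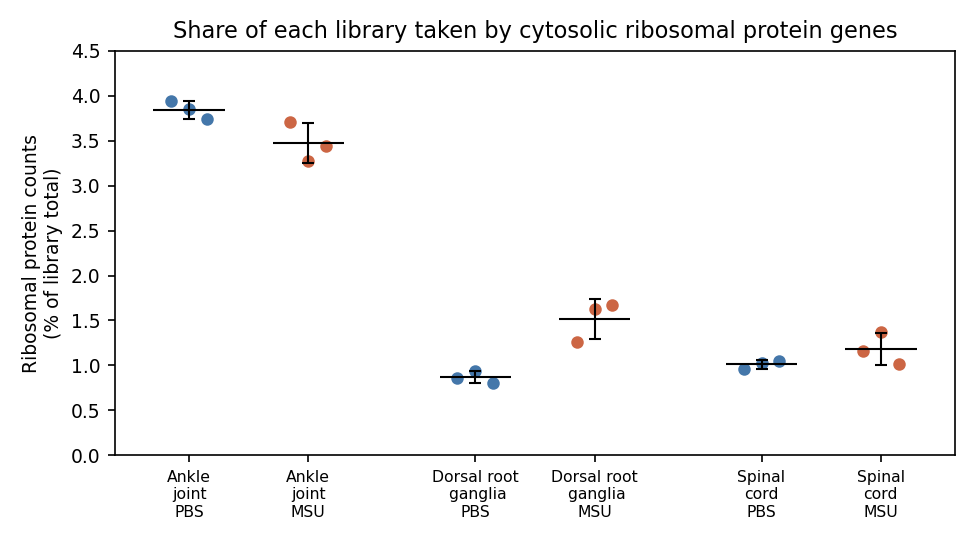
Share of all counts assigned to cytosolic ribosomal protein genes, in percent, for each of the 18 libraries by tissue and treatment. Points are libraries 1 to 3 from left to right, lines and bars are mean ± SD (n = 3). The ganglion MSU libraries reach 1.26 to 1.67% against 0.802 to 0.934% in controls, and the joint lies highest at 3.27 to 3.94%.

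In the dorsal root ganglia, 74 of the 78 members rose after MSU and 0 fell, at an adjusted p under 0.05 (edgeR quasi-likelihood test, Benjamini-Hochberg over all 17008 genes tested), where 16.7% of all genes were called higher and 18.7% lower, 35.4% in either direction. All 78 passed the filter on low counts. The median log2 fold change of the members was 0.84, a 1.79-fold difference, against 0.016 over all genes tested. Both subunits moved: 45 of 46 large subunit and 29 of 32 small subunit genes were called higher, with median log2 fold changes of 0.80 and 0.87. For 74 members the 3 MSU libraries all lay above the 3 controls, an arrangement that 24.8% of all genes had. Measured as the median shift of the members from the control mean, the MSU libraries stood at 0.63, 0.92 and 0.97 on the log2 scale and the controls at 0.027, 0.083 and -0.10, so MSU library 1 was the lowest of the MSU libraries.

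**Figure D2:**
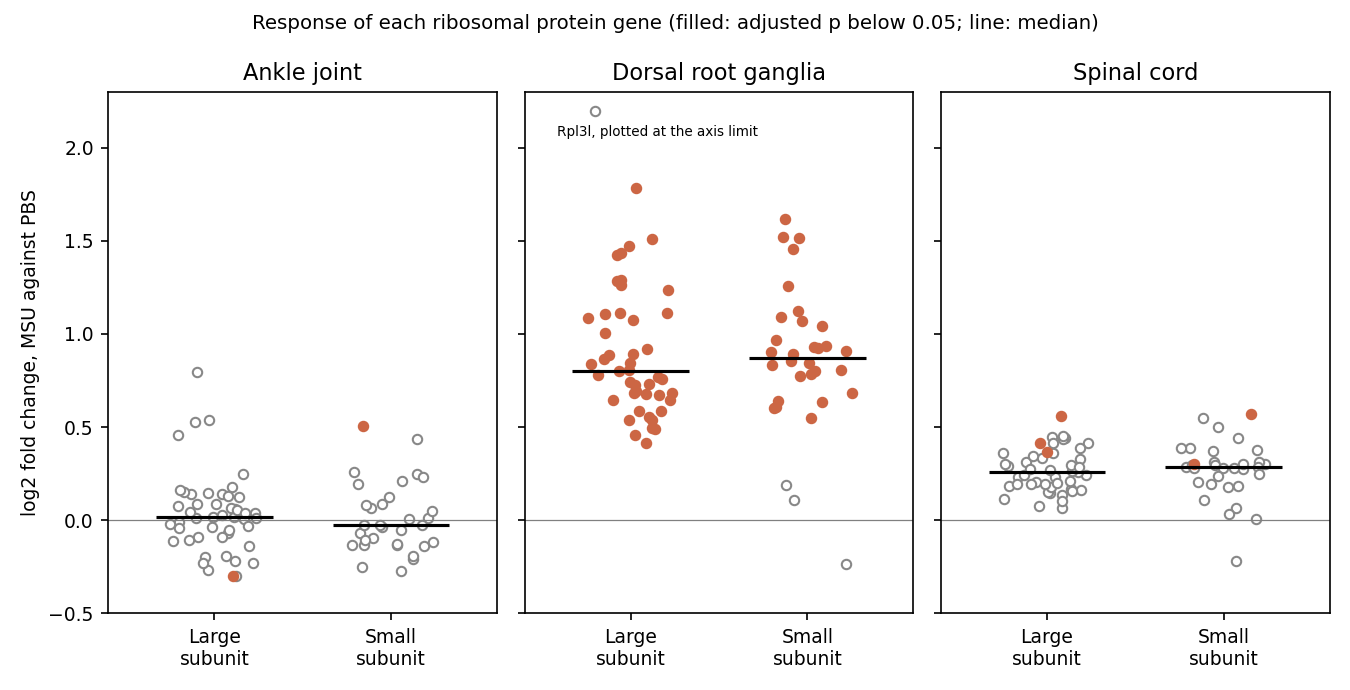
Log2 fold change of MSU against PBS for each member in the ankle joint (81 tested), dorsal root ganglia (78) and spinal cord (78), split by subunit. Filled points had an adjusted p below 0.05 (edgeR), open points did not, and lines are medians; the ganglion medians lie at 0.80 and 0.87, those of the cord at 0.26 and 0.29 and those of the joint near 0.

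The acidic stalk of the large subunit, which recruits elongation factors to the ribosome, is formed by Rplp0, Rplp1 and Rplp2. Rplp0 stood at 301, 337 and 323 CPM in the ganglion controls and 477, 546 and 507 CPM after MSU, and rose by 0.67 ± 0.084 (log2 fold change ± SE, adjusted p = 0.000352). Rplp1 went from 207, 203 and 184 CPM to 326, 386 and 387 CPM, a rise of 0.89 ± 0.091 (adjusted p = 0.000133). Rplp2 went from 70.9, 64.9 and 65.8 CPM to 93.0, 98.0 and 102 CPM, a rise of 0.54 ± 0.071 (adjusted p = 0.000444) that was 0.13 and not called once a trend on transcript length and GC content was taken out. The groups did not overlap for any of the 3 stalk genes, and MSU library 1 was the lowest of the MSU libraries for each.

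Among small subunit genes, the largest rises were those of Rps27, Rps29, Rps21 and Rps28, which encode some of the smallest proteins of the subunit. Rps27 stood at 24.3, 24.6 and 14.0 CPM in the controls and 50.9, 62.4 and 80.9 CPM after MSU (3.07-fold, log2 1.62 ± 0.28, adjusted p = 0.00970). Rps29 stood at 32.4, 34.2 and 16.6 CPM and then 65.4, 77.3 and 97.4 CPM (2.87-fold, adjusted p = 0.0236). Rps28 stood at 17.1, 16.6 and 9.58 CPM and then 35.0, 37.7 and 46.7 CPM (2.74-fold, adjusted p = 0.00470). Control library 3 was the lowest library for each of these genes and MSU library 3 the highest, and the groups stayed apart. Rps21 had the same arrangement, with 27.9, 27.8 and 17.9 CPM against 54.6, 70.2 and 85.9 CPM (2.86-fold, adjusted p = 0.00531). The call of Rps29 depended on single libraries: its adjusted p was 0.0717 without MSU library 2, 0.0717 without MSU library 3 and 0.0603 without control 1, and 0.0650 with no count filter.

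The abundant small subunit genes rose less. Rpsa, also known as the laminin receptor precursor, went from 277, 309 and 292 CPM to 398, 454 and 433 CPM (1.46-fold, adjusted p = 0.000818). Rps6, whose protein is phosphorylated by kinases downstream of mTOR, went from 214, 233 and 232 CPM to 313, 377 and 365 CPM (1.55-fold, adjusted p = 0.000590). Rps4x, carried on the X chromosome, rose 1.52-fold (adjusted p = 0.00104). The control and MSU libraries did not overlap for these genes either. Rps19, whose human counterpart is mutated in Diamond-Blackfan anaemia, rose 1.87-fold (adjusted p = 0.000319), and Rps27a, made as a fusion with ubiquitin, rose 1.96-fold (adjusted p = 0.00119).

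Large subunit genes spanned the widest range. Rpl23a, which lies at the exit of the peptide tunnel, stood at 4.83, 4.30 and 2.60 CPM in the controls and 10.5, 13.0 and 17.4 CPM after MSU, the largest rise of a called member (3.45-fold, log2 1.79 ± 0.25, adjusted p = 0.000994). Rpl35, its neighbour at the tunnel exit, stood at 3.88, 4.34 and 2.78 CPM and then 7.72, 10.2 and 13.5 CPM (2.85-fold, adjusted p = 0.000994). Both had few counts for ribosomal protein genes, as the levels per length given further on show. Rpl37 stood at 42.3, 41.2 and 33.1 CPM and then 89.4, 99.3 and 126 CPM (2.70-fold, adjusted p = 0.000300), and Rpl39, a short X-linked gene, at 25.3, 23.2 and 14.7 CPM and then 45.3, 55.4 and 74.97 CPM (2.77-fold, adjusted p = 0.0122). Without a count filter the adjusted p of Rpl39 was 0.0525. Rpl38, known in mice for its effect on the translation of Hox mRNAs, rose 2.68-fold (adjusted p = 0.00771) and Rpl41, the shortest ribosomal protein, 2.35-fold (adjusted p = 0.000288).

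At the other end, Rpl22 stood at 88.6, 91.8 and 79.9 CPM in the controls and 104, 115 and 128 CPM after MSU, the smallest rise of a called member (1.33-fold, log2 0.41 ± 0.090, adjusted p = 0.00560). Rpl4 rose 1.37-fold (adjusted p = 0.00152), Rpl3, which helps to form the peptidyl transferase centre, 1.40-fold (adjusted p = 0.00414) and Rpl8 1.41-fold (adjusted p = 0.00142). Rpl10, which is added late in the assembly of the large subunit, rose 1.56-fold (adjusted p = 0.000765) and Rpl10a 1.67-fold (adjusted p = 0.000267). Rpl5 and Rpl11, which join the smallest ribosomal RNA and, when free, bind the ubiquitin ligase MDM2, rose 1.62-fold (adjusted p = 0.00150) and 1.69-fold (adjusted p = 0.00225). Rpl19 was the called member whose groups overlapped, with 40.5, 54.3 and 39.1 CPM in the controls and 53.7, 69.6 and 77.7 CPM after MSU (adjusted p = 0.0351); MSU library 1 lay below control 2. Rpl13a, a member of the interferon-gamma silencing complex in human myeloid cells, rose 2.01-fold (adjusted p = 0.00859) from a mean of 2.55 CPM, and its adjusted p was 0.0526 without MSU library 3.

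**Figure D3:**
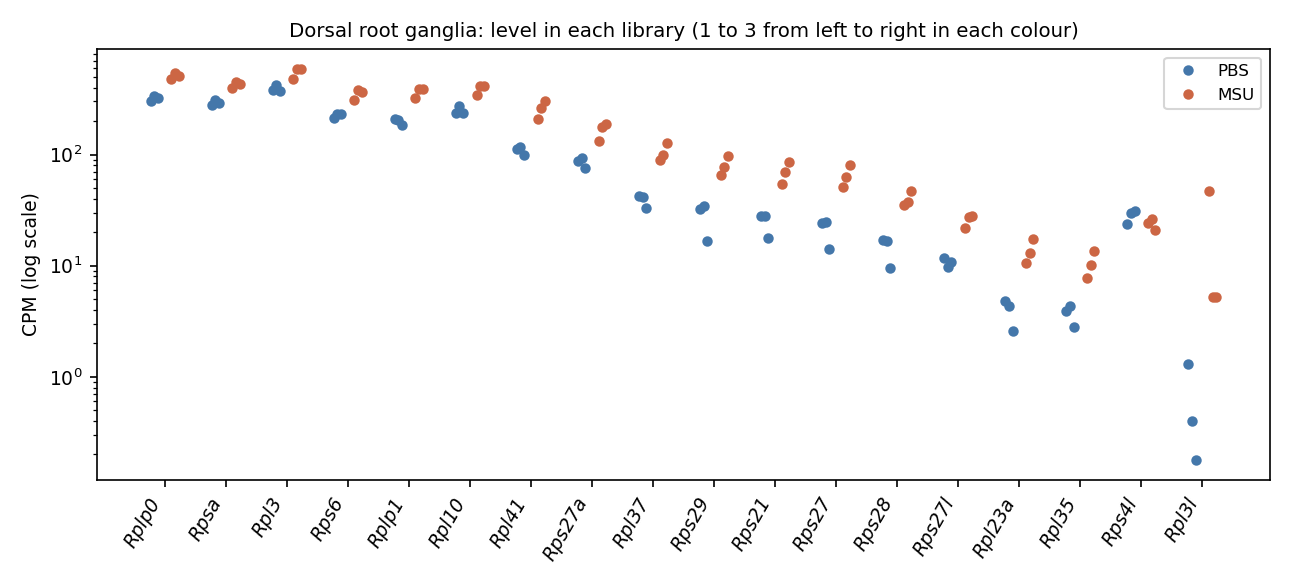
CPM (log scale) of 18 members in each dorsal root ganglion library, PBS in blue and MSU in orange, libraries 1 to 3 from left to right. MSU points lie above PBS points except for Rps4l; control 3 is low for Rps29, Rps21, Rps27 and Rps28, and Rpl3l reaches 46.7 CPM in MSU library 1.

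Rpl3l, Rps10 and Rps4l were among the 4 members not called in the ganglia. Rps10 had only 1.42 to 2.04 CPM in the controls and 1.08 to 2.41 CPM after MSU (adjusted p = 0.811). Rps4l, an intronless copy that the annotation lists as a transcribed processed pseudogene, stood at 23.9, 29.6 and 31.0 CPM and then 24.3, 26.2 and 21.1 CPM (log2 -0.24, adjusted p = 0.152). Rpl3l, the paralog of Rpl3 made in skeletal and heart muscle, stood at 1.31, 0.399 and 0.177 CPM and then 46.7, 5.24 and 5.21 CPM (log2 4.69 ± 1.47, adjusted p = 0.0765). The Rpl3l groups were apart, but MSU library 1 was far above the other two. Without that library the log2 fold change of Rpl3l was 2.84 and passed the test (adjusted p = 0.00632).

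Muscle transcripts followed the same libraries. The 14 skeletal muscle markers summed to 385, 250 and 84.4 CPM in the ganglion controls. In MSU libraries 1 to 3 they summed to 16677, 2125 and 2101 CPM. Of 13 tested markers 2 were called higher (Myl1 and Mylpf) and 0 lower. Of all genes in the ganglia 16.7% were called higher and 18.7% lower, so the share of muscle calls was near that of all genes. The size of the change was not: the median log2 fold change of the muscle markers was 5.29. In the 18-library fit, the response of all 13 tested markers was called higher in the ganglia than in the cord, against 3.11% of all genes. All 13 were called lower in the ankle than in the ganglia, against 18.1%. The 17 sensory neuron markers summed to 19547 to 21950 CPM in the controls and 14938 to 15225 CPM after MSU, with 10 called lower and 0 higher. The 7 erythroid genes summed to 207 to 263 CPM and then 441 to 608 CPM, with all 7 called higher. The 12 macrophage markers summed to 122 to 239 CPM and then 291 to 329 CPM, with 7 called higher, and the 19 neutrophil markers to 160 to 269 CPM and then 298 to 700 CPM, with 8 called higher, and 0 of either list were called lower. The 10 Schwann and satellite cell genes summed to 8885, 7817 and 6235 CPM in the controls and 8083, 10589 and 10455 CPM after MSU. Of these, 4 were called higher and 2 lower. MSU library 1 was the lowest MSU library for this list, as for the members, and lay below control 1. Of the muscle markers, 1 of 14 was at 0 in all 3 controls. The part of these cells in the ribosomal protein result was not tested. Leaving out MSU library 1, which held the most muscle RNA, gave 75 members called higher and a median of 0.94. MSU libraries 2 and 3 still held more muscle RNA than the controls, so that fit did not test the part of muscle either.

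Transcript length moved with the response in the ganglia. The members had a median transcript length of 737.5 bases against 2413 for the other genes tested. Other genes under 500 bases had a median log2 fold change of 0.30, those of 500 to 1000 bases 0.26, of 1000 to 2000 bases 0.10, of 2000 to 4000 bases -0.040 and over 4000 bases -0.14. The members stood above the other genes in each range, at medians of 1.12 (14 members), 0.84 (47), 0.68 (13), 0.69 (3) and 0.84 (1). Length was that of 1 annotated transcript per gene, the one of median length, which may not be the one made here. The member over 4000 bases was Rps15a, given as 5130 bases, and Rps20 was given as 3706 bases. The ranges above 2000 bases therefore cannot show how long members respond. Within the members, Spearman's rho of log2 fold change with length was -0.55 and with mean level -0.66 over 78 genes, which share the same 6 libraries. Fitting each library's trend on length and GC content over the other genes and taking it out as an offset left 70 members called higher and 1 lower, with a median of 0.48. Rplp2 (log2 0.13, adjusted p = 0.166), Rpl13a (log2 0.60, adjusted p = 0.0773), Rpl15 (log2 0.22, adjusted p = 0.0729) and Rpl19 (log2 0.24, adjusted p = 0.308) were not called under that offset, and Rps4l was the gene called lower (log2 -0.38, adjusted p = 0.0285).

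**Figure D4:**
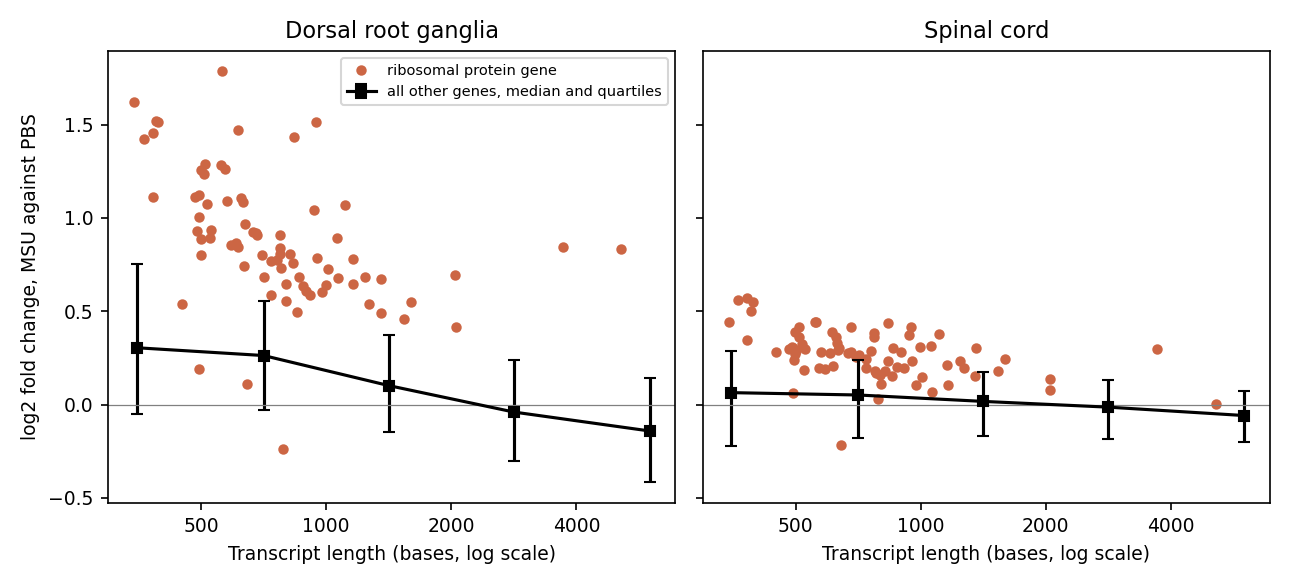
Log2 fold change of MSU against PBS by transcript length (bases, log scale) in dorsal root ganglia and spinal cord. Orange points are ribosomal protein genes (Rpl3l is not drawn), black squares and bars are the median and quartiles of all other genes in 5 length ranges; short genes stand higher than long ones in the ganglia, and the members under 500 bases have a median of 1.12 against 0.30 for other genes.

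Promoter sequence was compared in windows from 250 bases before to 50 bases after the start site from RefSeq (GRCm38.p6), which 60 of the 82 members of any tissue had. Some of these, such as Rpl24, Rpl36al and Rpl39l, were no members in the ganglia, and Rpl3l and Rps10 were not called there. A gene counted as a match if any of its windows matched. CGGAAG, the core bound by ETS family factors, was found on either strand in 42 of 60 members (70.0%) and in 23.3% of 17432 other protein-coding genes. These others were not limited to genes expressed in these tissues. A run of 8 or more C or T letters on the coding strand, within 25 bases before or after the start, was found in 32 of 60 (53.3%) and in 21.9% of the others. The run did not have to begin at the start, as a TOP motif does, so these shares do not count TOP starts. CTTTCC on either strand, which can overlap such a run, was in 53.3% and 28.8%, and CACGTG, the E-box bound by MYC, in 10.0% and 8.91%. Members with CGGAAG had a median ganglion log2 fold change of 0.87 (39 members) and those without 0.79 (18), and members with the pyrimidine run 0.84 (31) and without 0.85 (26).

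To show how the starts of strongly and weakly rising members look, the 50 bases centred on the start site are given for the 5 largest and 3 smallest called rises that had a window, on the coding strand, with runs of 8 or more C or T in capitals. The positions are chr3:90213624-90213673 (Rps27, minus strand), chr2:180257354-180257403 (Rps21, plus), chr2:39005107-39005156 (Rpl35, minus), chrX:37085198-37085247 (Rpl39, minus), chr17:33824538-33824587 (Rps28, minus), chr5:121204476-121204525 (Rpl6, plus), chr9:64173362-64173411 (Rpl4, plus) and chr4:152325701-152325750 (Rpl22, plus).
Rps27: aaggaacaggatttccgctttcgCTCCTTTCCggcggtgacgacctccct
Rps21: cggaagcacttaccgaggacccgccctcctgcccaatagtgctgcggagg
Rpl35: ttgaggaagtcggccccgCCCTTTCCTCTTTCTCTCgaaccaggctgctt
Rpl39: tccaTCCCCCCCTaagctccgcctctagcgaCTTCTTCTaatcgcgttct
Rps28: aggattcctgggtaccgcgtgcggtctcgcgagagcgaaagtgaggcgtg
Rpl6: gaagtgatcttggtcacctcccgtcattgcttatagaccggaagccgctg
Rpl4: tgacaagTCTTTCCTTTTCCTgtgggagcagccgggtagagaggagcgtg
Rpl22: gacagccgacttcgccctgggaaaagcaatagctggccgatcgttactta
The run is present in Rps27, Rpl35 and Rpl39, with 3.07-, 2.85- and 2.77-fold rises, but also in Rpl4, with 1.37-fold, and it is absent from the windows of Rps28 and Rps21 and from those of Rpl6 and Rpl22 among the smaller rises.

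The element CGGAAG or its reverse complement CTTCCG, in capitals, is shown in 60-base windows for the 4 largest rises that had it at 10 to 220 bases before the start. The windows are chr3:90213696-90213755 (Rps27), chr2:180257327-180257386 (Rps21), chr2:39005226-39005285 (Rpl35) and chr17:33824593-33824652 (Rps28), with the strands given above.
Rps27: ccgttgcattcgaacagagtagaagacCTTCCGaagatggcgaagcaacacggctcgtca
Rps21: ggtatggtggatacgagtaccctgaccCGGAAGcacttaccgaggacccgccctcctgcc
Rpl35: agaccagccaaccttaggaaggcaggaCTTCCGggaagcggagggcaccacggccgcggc
Rps28: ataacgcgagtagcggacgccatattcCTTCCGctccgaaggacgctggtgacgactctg
The Rps21 promoter held 3 matches, of which the one nearest the start is shown; the others held 1 each. The first base of the element lay 80 bases before the start in Rps27, 25 in Rps21, 127 in Rpl35 and 63 in Rps28. A match of letters is a description and not a bound site, and no binding was measured in these samples.

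In the spinal cord, 5 of 78 members rose and 0 fell, where 5.6% of the 17507 genes tested were called higher and 4.07% lower, 9.66% in either direction, so the share of members called higher, 6.41%, was near that of all genes. Rps28, Rpl38, Rpl18 and Rpl28 were among the members that rose. The log2 fold change was above 0 for 77 of 78 members, with a median of 0.28 against -0.0098 over all genes, and for 22 members the groups did not overlap, which 13.7% of all genes showed in this direction. Rps28 stood at 24.6, 28.2 and 19.1 CPM in the controls and 36.1, 41.1 and 29.8 CPM after MSU (1.48-fold, adjusted p = 0.0368). Rpl38 stood at 41.4, 48.7 and 41.8 CPM and then 64.6, 78.5 and 51.1 CPM (1.47-fold, adjusted p = 0.0371). In both genes MSU library 2 was the highest and MSU library 3 only just above the controls. Rpl18 rose 1.33-fold (adjusted p = 0.0232) and Rpl28 1.29-fold (adjusted p = 0.0379). All 5 were also called higher in the ganglia, as were 74 members in all.

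The median shift of the members from the control mean was 0.24, 0.48 and 0.014 on the log2 scale in MSU libraries 1 to 3 and -0.067, 0.028 and 0.045 in the controls, so MSU library 3 lay within the controls. The macrophage markers summed to 197 to 255 CPM in the controls and 306, 470 and 324 CPM in MSU libraries 1 to 3. The neutrophil markers summed to 88.5 to 109 CPM and then 268, 287 and 125 CPM. Of these lists 7 of 12 and 7 of 18 were called higher, and all 3 MSU libraries lay above the controls, unlike for the members. The 13 glial genes summed to 6112 to 7164 CPM and then 6714, 8639 and 6581 CPM, with 1 called higher and 4 lower. The 10 Schwann and satellite cell genes summed to 17973 to 20249 CPM and then 19761, 22976 and 18172 CPM. Of these, 1 was called higher and 2 lower. MSU library 2 was the highest for each of these lists and for the members, and the part of these cells was not tested. Rplp0 stood at 201, 231 and 245 CPM in the controls and 266, 322 and 246 CPM after MSU (log2 0.30, adjusted p = 0.101). Rplp1 (log2 0.27, adjusted p = 0.198), Rpsa (log2 0.25, adjusted p = 0.183), Rps6 (log2 0.20, adjusted p = 0.240) and Rpl3 (log2 0.15, adjusted p = 0.389) were not called. Rps27, Rps29 and Rpl23a, among the largest rises of the ganglia, had log2 fold changes of 0.44, 0.50 and 0.44 here (adjusted p = 0.196, 0.238 and 0.135). The count of calls turned on single libraries: 48 members were called without MSU library 3, 2 without MSU library 2, 0 without MSU library 1 or control 1, and 1 without control 2 or control 3. The length and GC offset left 1 call, against 5.

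In the ankle joint, 1 of the 81 members tested rose and 1 fell, where 21.6% of the 17690 genes tested were called higher and 21.7% lower. The median log2 fold change was 0.0094, with 43 members above 0 and 38 below. Its sign was not stable: it was below 0 with upper quartile factors (-0.091), in the 18-library fit (-0.096), without a count filter (-0.026), and without MSU library 1 (-0.036), MSU library 3 (-0.013), control 2 (-0.0072) or control 3 (-0.013). For 13 members all MSU libraries lay above the controls and for 8 all lay below, against 27.7% and 28.2% of all genes. Rps2, at the entry of the mRNA channel of the small subunit, stood at 974, 1028 and 949 CPM in the controls and 1352, 1336 and 1504 CPM after MSU (1.42-fold, log2 0.51 ± 0.11, adjusted p = 0.00429). Rpl36 stood at 293, 289 and 269 CPM and then 242, 209 and 242 CPM and fell by 0.30 on the log2 scale (adjusted p = 0.0348). The groups were apart for both genes. The call of Rpl36 was lost when MSU library 2, MSU library 3 or any of the 3 controls was left out (adjusted p from 0.0550 to 0.106) and under the length and GC offset (log2 -0.026). The count called higher was 4 without MSU library 2, 3 without control 1 and 2 without control 2, and the count called lower was 3 without MSU library 1.

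Other joint members were not called. Rplp0 stood at 1560, 1709 and 1715 CPM in the controls and 1702, 1593 and 1584 CPM after MSU (log2 -0.031, adjusted p = 0.837), and the groups overlapped. Rps6 stood at 678, 693 and 676 CPM and then 850, 778 and 819 CPM (log2 0.26, adjusted p = 0.0526), with the groups apart. Rps27 and Rps28, which rose in the ganglia, had log2 fold changes of -0.25 (adjusted p = 0.113) and -0.27 (adjusted p = 0.0645). Among paralogs, Rpl3l stood at 16.7, 13.7 and 13.5 CPM and then 10.3, 11.5 and 14.1 CPM (log2 -0.30, adjusted p = 0.195). Rps27l, a paralog of Rps27 that responds to the tumour suppressor p53 in human cells, was not called in the joint (log2 0.21, adjusted p = 0.219) and rose 2.39-fold in the ganglia (adjusted p = 0.000108). Rpl39l, the paralog of Rpl39 made in testis, reached a mean of 1.01 CPM in joint controls and 1.77 CPM after MSU (adjusted p = 0.162) and was no member in the ganglia or cord.

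The difference in response between tissues was tested as an interaction over all 18 libraries, with 79 members at a mean of 10 or more counts. The response in the ankle was lower than in the ganglia for 70 members and higher for 1, where 18.1% and 14.3% of the 20757 genes tested were called in these directions; the median difference was -0.86 on the log2 scale. The 1 exception was Rps4l (0.65, adjusted p = 0.0274), whose call was lost in 6 of the alternatives run. The response in the ganglia was higher than in the cord for 26 members and lower for 0, against 3.11% and 10.4% of all genes, with a median difference of 0.49. The largest of these were Rpl23a (1.24 ± 0.29, adjusted p = 0.00836), Rps27 (1.07 ± 0.32, adjusted p = 0.0372), Rpl35 (1.00 ± 0.32, adjusted p = 0.0465) and Rpl37 (0.89 ± 0.20, adjusted p = 0.00758). The response in the ankle was lower than in the cord for 23 members and higher for 0, against 17.6% and 9.15% of all genes, with a median difference of -0.38, and Rps28 differed most (-0.97 ± 0.26, adjusted p = 0.0119; 0.0631 without cord MSU library 2 and 0.0590 without ankle MSU library 2).

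The ganglion against cord calls of Rps27 and Rpl35 were lost in 18 and 17 of the alternatives run. The deposited columns carry other library numbers than the titles, and these recur across tissues; the labels do not say whether tissues share mice, and the fit treats all libraries as independent. With that number as a block across tissues, an alternative added after seeing the data, 1 member was called higher in the ganglia than in the cord (median 0.44), 58 lower in the ankle than in the ganglia and 17 lower in the ankle than in the cord. These counts moved with single libraries where the cord was involved. The 26 calls of the ganglia against the cord became 4 without ganglion MSU library 3, 5 without cord MSU library 3 or ganglion control 3, 7 without cord MSU library 1 or cord control 2, 8 without ganglion MSU library 2, 12 without cord control 3, 15 without cord control 1 or ankle control 2, 16 without ankle control 3, 51 without cord MSU library 2 and 55 without ganglion MSU library 1. The 23 calls of the ankle against the cord became 0 without cord MSU library 2, 1 without ankle MSU library 2, 7 without ankle control 2 or 3, 11 without ankle control 1 or cord control 1, 15 without ankle MSU library 3 and 40 without cord MSU library 3. With ganglion MSU library 1 and cord MSU library 2 both left out, a choice made after seeing the data, they were 69 and 9. The 70 calls of the ankle against the ganglia stayed between 58 and 73 when each library was left out.

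In the PBS controls, the members were expressed most in the joint. Of 79 members, 78 were higher in the joint than in the ganglia, where 40.3% of all genes were called higher, with a median log2 difference of 1.89 and groups that did not overlap, as for 41.3% of all genes, and 78 were higher in the joint than in the cord, where 40% were, with a median of 1.80. Rps4l was lower in the joint than in the ganglia (log2 -0.79, adjusted p = 0.000128) and than in the cord (log2 -0.44, adjusted p = 0.0139), and the latter was not called without cord control 2 (adjusted p = 0.0605). Rps28, at 3.20 ± 0.20, and Rps27, at 3.07 ± 0.24, had the largest log2 differences between joint and ganglia after Rpl3l (4.10 ± 0.86). Ganglia and cord were closer, with 9 members higher and 18 lower in the ganglia against 29.9% and 26.7% of all genes, 56.6% in either direction. Rplp0 (0.67 ± 0.10), Rps27l (0.64 ± 0.16) and Rpl10 (0.52 ± 0.12) were higher in the ganglia, and Rpl23a (-0.83 ± 0.21), Rps15a (-0.77 ± 0.11) and Rps21 (-0.77 ± 0.23) lower. The count of 18 was 4 with the number block, 8 without cord control 2, 10 without cord control 3 and 6 without ganglion control 3.

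Per length, the stalk gene Rplp1 had the highest control level in every tissue, at 1529 ± 44.7 RPKM (CPM per kilobase of transcript) in the joint, 445 ± 25.7 in the ganglia and 499 ± 33.9 in the cord (SD, n = 3). In the joint it was followed by Rps12 at 1508 ± 109 RPKM, a difference within the spread. In the ganglia Rpl10 came next, at 348 ± 24.4 RPKM, ahead of Rpl3 at 325 ± 19.1 and Rps24 at 312 ± 15.6, which did not differ beyond their spread. The median over members was 545 RPKM in the joint, 151 in the ganglia and 161 in the cord. Far below it, in the ganglion controls, were Rpl23a at 7.82 RPKM, Rpl13a at 5.77, Rpl35 at 4.34 and Rps10 at 3.04, and Rpl24 had a mean of 4.83 counts there and was no member. Ribosomal protein genes have many near-identical processed copies in the mouse genome, and reads shared with such a copy could have been split or dropped in counting, so the levels of these genes are uncertain.

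The rest of the translation machinery was compared by the same calls. In the ganglia, 7 of 8 further ribosome genes outside the symbol rule rose and 0 fell, with a median log2 fold change of 0.82, among them Rack1, the signalling scaffold on the small subunit (0.68 ± 0.08), Fau (0.90 ± 0.11) and Rps3a1 (0.76 ± 0.10). Of 19 other mRNAs known to carry a TOP motif, a list that shares genes such as Rack1 and Fau with the former, 13 rose and 1 fell (median 0.48), Tpt1 by 0.66 ± 0.08. Of 13 elongation and termination factors 3 rose and 3 fell (median 0.12), and Eef1a1 (0.51 ± 0.10) and the neuronal and muscle form Eef1a2 (-0.68 ± 0.14) went in opposite directions. Of 37 initiation factors 11 rose and 4 fell, of 60 ribosome biogenesis genes 15 rose and 5 fell (median 0.093), and of 77 mitochondrial ribosomal protein genes 38 rose and 1 fell (median 0.26), where 16.7% of all genes rose and 18.7% fell. The initiation and biogenesis counts, rises and falls together, lie near the 35.4% of all genes. Among 33 genes of growth signalling 7 rose and 7 fell, including the translation repressor Eif4ebp1 (1.51 ± 0.13) and Mtor (-0.67 ± 0.08).

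In the joint, 55 of 60 ribosome biogenesis genes rose and 0 fell, with a median of 0.92, where 21.6% of all genes rose, among them Nop58 (1.46 ± 0.10), Rrs1 (1.41 ± 0.10) and Gnl3 (1.32 ± 0.10), while the ribosomal protein genes themselves had a median of 0.0094. Initiation factors rose in 22 of 37 cases and fell in 0, and Myc rose by 1.61 ± 0.16. The 33 genes of growth signalling were mixed, with 12 called higher and 7 lower (median 0.17), where 21.6% and 21.7% of all genes were called. In the same joints 14 of 19 neutrophil markers rose and 10 of 11 keratinocyte markers fell, and the part of these cells was not tested. In the cord, 1 of 60 biogenesis genes rose and 1 fell, and 0 of 37 initiation factors and 0 of 8 further ribosome genes were called. There 5.6% of all genes rose and 4.07% fell, so lists of this size would hold few calls in any case.

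**Figure D5:**
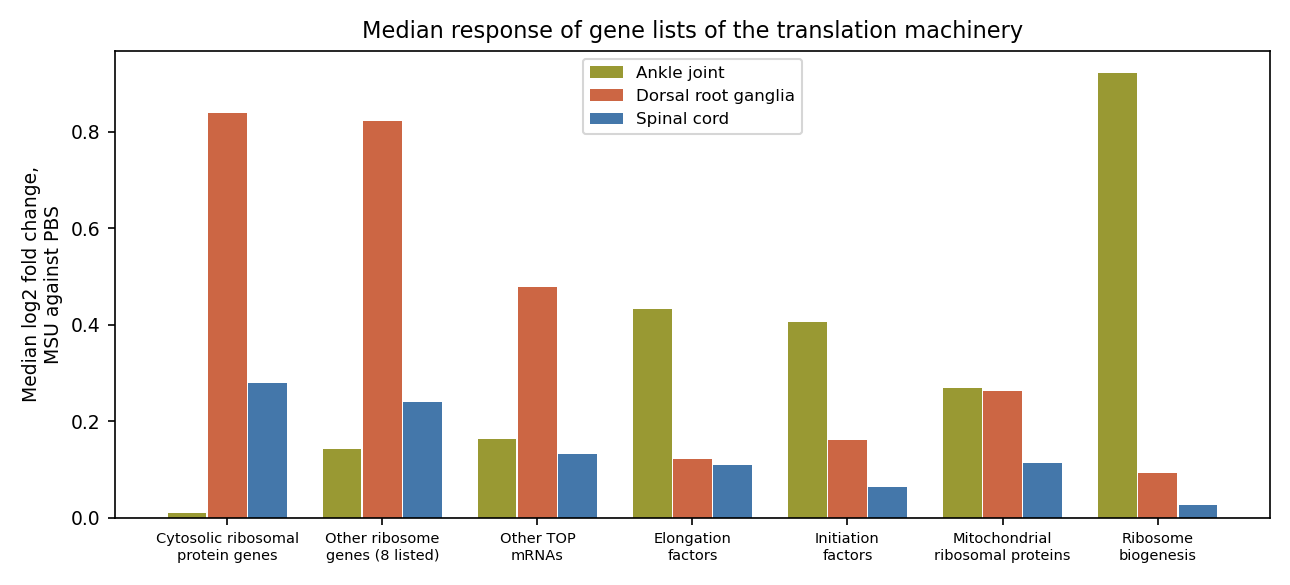
Median log2 fold change of MSU against PBS for the members and 6 gene lists of the translation machinery in the 3 tissues. Ribosomal protein genes have their highest median in the ganglia (0.84), ribosome biogenesis genes in the joint (0.92).

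The 8 genes outside the family whose log2 CPM correlated best with the members' mean over the 6 ganglion libraries were Ndufa7, Uqcc2, Hnrnpl, Srgn, Mier1, Ifi207, Romo1 and Gfpt2, out of 13861 genes ranked. Pearson's r ran from 0.997 to 0.999, and these values share the same 6 libraries and their separation into 2 groups. Their own log2 fold changes ran from 0.16 (Hnrnpl, adjusted p = 0.0863) to 3.20 (Ifi207, adjusted p = 0.000208).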

How the data were processed

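The authors deposited 1 table of raw read counts per gene for each tissue, with 55359 genes and 6 libraries each. The submitters' processing notes name HISAT2, HTSeq 0.11.3, DESeq2 and the build mm39; their settings, the annotation and strand handling are not given in the sources used here. Each tissue was tested with edgeR 4.0.16 (R 4.3.3): filterByExpr with a minimum count of 10 and total of 15, TMM factors, the robust quasi-likelihood test and Benjamini-Hochberg adjustment over all genes, called at 0.05. CPM are TMM-scaled. Differences between tissues came from a joint fit of all 18 libraries. No 2 replicates agreed within sampling noise (smallest chi-square per degree of freedom 5.69). The tests were checked on simulated counts. Named members were, for each tissue, up to 8 called members with the largest change in each direction, up to 4 for each difference between tissues and up to 3 for each control contrast, and a set chosen for their roles; for each other list, up to 3 called genes with the smallest p-values. The members and lists were chosen with earlier results of these data known. Rpl4, Rpl6, Rpl8, Rpl15, Rpl19, Rpl24, Rpl41, Rps10, Rps12 and Rps24 fall outside that rule and were named after their values were seen. Some single genes are counted but not reported by name here. Alternatives were RLE and upper quartile factors, TMM factors without the members, other count filters, DESeq2 1.42.0, limma-voom 3.58.1, a length and GC offset (mgcv 1.9.3), blocks by replicate number and by deposited column number, a stricter threshold and leaving out each library.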

Additional observations from a re-analysis of the deposited data

Results flagged for a closer look

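The response to MSU differed between tissues for many members, by a test of the difference itself. It was higher in the ganglia than in the cord for 26 members, with log2 differences of 1.24 for Rpl23a, 1.07 for Rps27, 1.00 for Rpl35 and 0.89 for Rpl37. It was lower in the ankle than in the ganglia for 70 members and higher for 1, Rps4l (0.65), with differences of -5.02 for Rpl3l, -1.89 for Rps27, -1.77 for Rpl23a and -1.75 for Rps28. It was lower in the ankle than in the cord for 23 members, with differences of -0.97 for Rps28, -0.80 for Rpl37a, -0.79 for Rpl38 and -0.77 for Rpl36. Rpl3l stood at 46.7 CPM in ganglion MSU library 1, and without that library its difference between ankle and ganglia was -3.20 (adjusted p = 0.000290). The ganglion against cord calls of Rps27 and Rpl35 were lost in 18 and 17 of the alternatives run, and with the deposited column number as a block those of Rpl23a (adjusted p = 0.0574) and Rpl37 (adjusted p = 0.0609) were lost as well. The ankle against cord call of Rpl38 was lost in 21 alternatives, and the difference of Rpl36 was -0.22 with the length and GC offset (adjusted p = 0.419). The call of Rps4l was lost in 6 alternatives, among them the number block (0.41, adjusted p = 0.168). It was also lost without ankle MSU library 1, ganglion MSU library 3, ganglion control 2 or ganglion control 3. Groups of 3 libraries were too small for a formal test of single outlying libraries, but each library was left out in turn.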

How the results depend on the processing

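No called value of the members named by the rule above changed sign under any alternative run. The other called members were not followed by sign through all alternatives. The median of the joint did change sign. In the ganglia the calls stayed between 71 and 75 and the median between 0.77 and 0.94 when each library was left out; the length and GC offset gave a median of 0.48 with 70 calls higher and 1 lower, and with the replicate block added 0.48, 65 and 1, where Rps27 (adjusted p = 0.0775), Rps21 (0.0590), Rpl38 (0.0828), Rpl39 (0.109) and Rps29 (0.144) were not called. The block alone lost Rpl39 (0.0570) and Rps29 (0.0686). Cord calls (5) were 19 with DESeq2, 0 at an adjusted p under 0.01, 2 in the 18-library fit and with limma-voom, 1 with the offset, 44 without a count filter, 8 with the replicate block, 9 with block and offset, and 0 to 48 with libraries left out. Joint calls higher (1) were 6 with DESeq2, 2 with RLE factors and without a filter, 5 with the offset, 3 with limma-voom and with the block, 6 with block and offset, and 1 to 4 with libraries left out. Joint calls lower (1) were 0 at 0.01 and with the block, 4 in the 18-library fit, with the offset and without a filter, 5 with block and offset, 7 with upper quartile factors, and 0 to 3 with libraries left out; the joint median was -0.096 in the 18-library fit and -0.091 with upper quartile factors.

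Ganglia against cord calls (26) were 54 with DESeq2, 3 at 0.01, 69 without both libraries that stood apart (median 0.72), 10 with the offset, 15 without a filter, 6 with block and offset, 50 with upper quartile factors, and 4 to 55 with libraries left out. Ankle against cord calls lower (23) were 11 with RLE, upper quartile factors and a mean count of 10, 2 at 0.01, 9 without both libraries (median -0.21), 9 with the offset (median -0.17, 2 higher), 14 without a filter, 7 with block and offset (median -0.17, 2 higher), and 0 to 40 with libraries left out, with medians of -0.49 to -0.21 and 0 to 1 higher. For ankle against ganglia the median was -0.51 with the offset and -0.51 (-0.505) with block and offset, and the 1 higher call was 0 at 0.01 and 0 to 1 with libraries left out. Control levels of ankle against cord had medians of 1.49 with the offset and 1.48 with block and offset, with the 1 lower call 0 at 0.01 and 0 to 1 with libraries left out, and those of ankle against ganglia 1.70 and 1.70. Lower control levels in ganglia against cord (18) were 6 at 0.01, 35 with the offset, 8 without a filter, 32 with block and offset, 30 with upper quartile factors, and 6 to 21 with libraries left out. Without mitochondrially encoded genes the control share was 3.95% in the joint and 1.07% in the cord. Same-numbered libraries correlated at -0.126 to 0.227 and 3 of 6 per tissue best with their own number, so the numbers were not taken to pair them. Libraries of different tissues with the same deposited column number correlated at -0.0689 to 0.121. For the controls of ganglia and cord, same-number pairs stood at 0.0724 and 0.0889, above the other pairs (-0.109 to 0.0408). In the remaining comparisons they lay within the range of the other pairs. Correlations over so few libraries cannot tell whether tissues share mice, and the main fit left the libraries unpaired. With that number as a block, ganglia against cord had 1 call, ankle against ganglia 0 higher, and lower control levels in ganglia against cord 4. The cause of these changes was not tested.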
